A study of Mus musculus with 12 samples.

Results

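The effect of the Ins2 Akita allele alone was read in lineage-negative (Lin-negative) bone marrow, by setting the 2 libraries labelled Ins2Akita/+ (Akita) against the 3 libraries labelled WT. Members were chosen by the genotype in the sample labels, which gives 5 of the 12 labelled samples of the series, 11 of which have a column of counts. Genes entered if they passed edgeR's filter on low counts, which kept 15630 of 31060 genes. A further comparison set the Akita libraries against WT 1 and WT 2 only, with 15092 genes, because WT 3 stood far from all 4 others. The series also holds mice with 1 lost copy of Tet2, with and without the Akita allele, and its title concerns hyperglycemic stress and myeloid neoplasms. Those libraries entered the fit to estimate the spread and are otherwise given for a single gene among the closing observations.

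Akita mice (C57BL/6, genotype Ins2Akita/+) carry a single copy of a dominant Ins2 mutation, and WT mice (C57BL/6, genotype WT) carry none. All samples were labelled as Lin-negative bone marrow cells, and total RNA was sequenced. The labels give no treatment, age, sex, blood glucose value or number of animals per sample, and do not say whether replicates are separate animals. P-values therefore measure only how far these libraries scatter, which may be technical. Akita replicates are few (n = 2), and no labelled Akita library is numbered 3. Ins2 itself was not analysed here, and the Akita label therefore has no check on its target gene.

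The Akita mutation replaces a cysteine of insulin 2 that is needed for a disulfide bond. The misfolded hormone collects in the endoplasmic reticulum of pancreatic beta cells, the cells are lost, and the mouse becomes diabetic without a special diet or toxin. Insulin is made in the pancreas, and marrow cells in this model live in blood with high glucose and low insulin. Lin-negative marrow is what remains after depletion of cells bearing surface proteins of mature blood lineages, and holds stem cells, progenitors and precursors. In diabetic mice, marrow is known for a shift towards myeloid cell production driven in part by the alarmins S100A8 and S100A9 acting on the receptor RAGE, which makes these genes natural ones to read here.

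Total counts were 16795242 and 19722471 in the Akita libraries, against 19228500, 19903212 and 14814409 in the WT libraries. Markers of the labelled cells were present in all 5 libraries. Kit, the stem cell factor receptor of progenitors, was at 131 and 132 CPM (library-scaled counts, with TMM factors) in Akita, against 112, 129 and 122 CPM in WT. Lin-negative marrow should hold few mature T cells, and Cd3e was low in all, at 8.16 and 10.3 CPM in Akita against 10.8, 7.31 and 5.50 CPM in WT. Genes of maturing neutrophils were abundant, with 26 list genes summing to 36810 and 19570 CPM in Akita, against 26930, 28200 and 2655 CPM in WT. WT 3 was low in neutrophil genes and high in erythroid and stromal genes, and its mitochondrial share was 3.43% of counts, against 1.72% to 1.94% in the other 4 libraries. Monocyte and macrophage genes had their lowest sum in WT 3 (1217 CPM, against 1917 to 2639 CPM in the other 4), although complement genes of macrophages were high there. C1qa, a complement gene, was at 1.81 and 1.54 CPM in Akita, against 2.62, 1.49 and 50.3 CPM in WT. Differences and list medians are therefore given with WT 3 and without it.

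Libraries of the same genotype were not closer to each other than to the other genotype. Over the 15630 genes, Akita 1 and Akita 2 differed by at least 2-fold at 8.20% of genes. Akita 1 differed from WT 2 at 4.75% of genes, and Akita 2 differed from WT 1 at 5%. WT 1 and WT 2 differed from each other at 6.08%, while WT 3 differed from the other 4 libraries at 28.9% to 35.0%. Each Akita library thus had a WT library that it resembled more than it resembled the other Akita library, which sets the scale for all differences below.

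**Figure D1:**
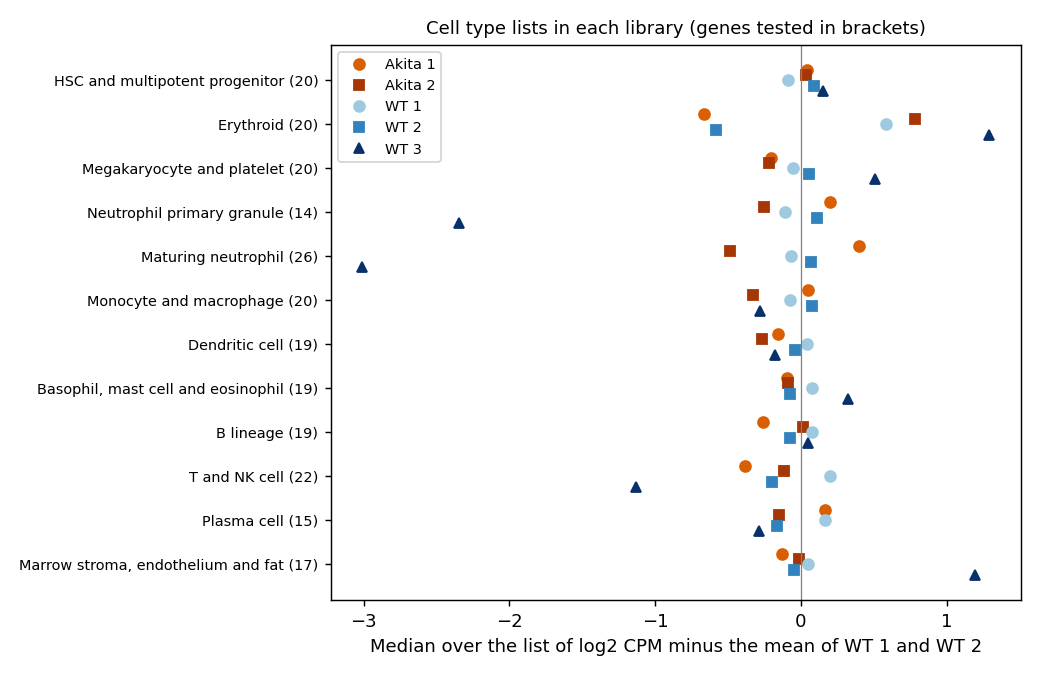
Median over each cell type list of log2 CPM minus the mean of WT 1 and WT 2 (horizontal axis), for Akita 1, Akita 2, WT 1, WT 2 and WT 3 (points, with Akita in orange and WT in blue). For erythroid genes Akita 1 lies beside WT 2 at -0.66 and -0.58 and Akita 2 lies beside WT 1 at 0.78 and 0.58, while WT 3 lies apart from all 4 in most lists.

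No gene differed between Akita and WT marrow past the threshold. By edgeR's quasi-likelihood test with Benjamini-Hochberg adjustment over all genes, 0 of 15630 genes had an adjusted p under 0.05 against all 3 WT libraries (0.0%), with 67 at an unadjusted p under 0.05. DESeq2 and limma voom called none either, with 92 and 48 genes at an unadjusted p under 0.05. Against WT 1 and WT 2 the edgeR test called 0 of 15092 genes (0.0%), with 102 at an unadjusted p under 0.05, 44 by DESeq2 and 109 by voom. All gene values below are thus descriptions of these libraries, and none is a called change.

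The intervals say how large a difference could have gone unseen. Without WT 3, the median standard error of a log2 difference was 0.22, and the 95% interval of the difference lay within 2-fold in both directions for 10931 of 15092 genes (72.4%). Among the 9237 genes with a mean of at least 10 CPM it did so for 8839 (95.7%). With WT 3 in the comparison the median standard error was 0.44, and only 5032 of those 9237 genes (54.5%) were held within 2-fold. The fit without WT 3 also left out the libraries numbered 3 of the other groups. How much of this change in precision belongs to WT 3 alone was not tested. Estimates themselves passed 2-fold at 11 of the 9237 genes without WT 3 and at 67 with it. For most genes of moderate or high level, a change of over 2-fold between Akita and the 2 WT libraries lay outside the interval. Over all genes tested, only 6976 of 15092 (46.2%) were held within 1.5-fold. The intervals of the others were not held within 1.5-fold.

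**Figure D2:**
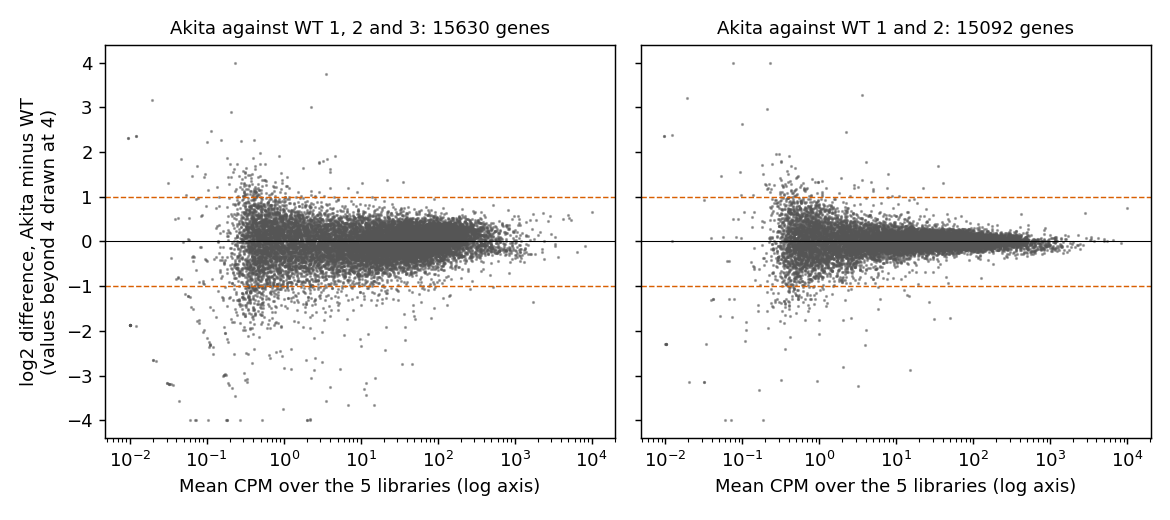
Log2 difference of Akita minus WT (vertical axis) against the mean CPM of the 5 libraries (horizontal log axis), for 15630 genes with all 3 WT libraries (left) and 15092 genes with WT 1 and WT 2 (right), with dashed lines at 2-fold. Differences of over 2-fold are found mainly among genes of low level, at 620 genes on the left and 240 on the right.

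A further description counted genes whose libraries did not overlap. Both Akita libraries lay above all 3 WT libraries at 747 of 15630 genes (4.78%) and below all 3 at 1072 genes (6.86%). Against WT 1 and WT 2 both Akita libraries were higher at 1797 of 15092 genes (11.9%) and lower at 2031 (13.5%). These shares are the background for every list below. The lists were not tested as sets, and the median log2 difference over all genes was -0.01 with WT 3 and 0.00 without it.

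Genes with both a fitted 2-fold difference and no overlap were counted without symbols made of Gm or Rik with digits and without unnamed identifiers. Of those with a mean of at least 1 CPM, 11 were higher and 34 lower in Akita. Immunoglobulin variable (V) gene segments, which each B cell or plasma cell clone uses singly, made up 9 of the 11 and 10 of the 34. Igkv5-45 was at 0.967 and 0.336 CPM in Akita, against 3.32, 2.99 and 12.1 CPM in WT (log2 difference -3.24, SE 0.85). Without WT 3 its difference was -2.31, with a 95% interval of -3.73 to -0.89. Igkv8-30 was at 18.5 and 9.55 CPM in Akita, against 20.6, 50.6 and 32.0 CPM in WT, a log2 difference of -1.29 (SE 0.41). Igkv4-58 was the highest of the other direction in fitted difference, at 8.34 and 1.10 CPM in Akita against 0.906, 0.796 and 0.00 CPM in WT (3.01, SE 1.17). Akita 1 was far above Akita 2, which lay close to WT 1.

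V segments varied widely within a genotype. Over 179 V segments tested, the median absolute log2 gap between Akita 1 and Akita 2 was 1.17, and that between WT 1 and WT 2 was 0.86. Gaps between an Akita library and WT 1 or WT 2 were 0.77 to 0.96, and those from the 4 other libraries to WT 3 were 1.53 to 1.75. For 13212 protein coding genes the gaps within the 2 pairs were 0.18 and 0.16. Akita and WT did not overlap at 27 of the V segments (15.1%), against 10.7% of protein coding genes. Summed V segment levels were 2510 and 1300 CPM in Akita, against 1960, 1680 and 2700 CPM in WT, so the groups overlapped. No segment took over 6.35% of the V total in any of the 5 libraries. V segments are short and alike in sequence, and how reads that match several were counted is not given in the sources used here, so single segment values are uncertain.

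Only 2 higher genes of this kind code for other proteins. Mtus2, a microtubule-associated protein gene, was at 1.87 and 1.73 CPM in Akita, against 1.31, 0.896 and 0.121 CPM in WT. Rgs9, a regulator of G protein signalling, was at 2.84 and 3.93 CPM in Akita, against 2.31, 2.29 and 0.00 CPM in WT. Their fitted differences were 1.19 and 1.13 with WT 3 and 0.70 and 0.56 without it, and the 95% intervals without it ran from -0.60 to 2.01 for Mtus2 and from -0.77 to 1.89 for Rgs9. Among the lower genes, Spic, the transcription factor of heme-recycling macrophages, was at 0.483 and 0.768 CPM in Akita, against 1.86, 0.796 and 9.0 CPM in WT. Hpgd, which breaks down prostaglandins, was at 0.846 and 0.768 CPM in Akita, against 1.46, 1.04 and 3.14 CPM in WT. Xlr4c, an X-linked imprinted gene, was at 1.15 and 1.49 CPM in Akita, against 2.21, 2.64 and 3.26 CPM in WT. Of these 3 genes, Xlr4c kept the nearest value without WT 3, at -0.87 (95% interval -1.80 to 0.06) against -1.03 with it. Fam213b and Psma8, which encode a prostamide and prostaglandin synthase and a proteasome subunit of the testis, also had values led by WT 3, and their intervals without it included 0.

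Among lists of at least 5 tested genes, ribosomal protein genes had the highest share below all 3 WT libraries. All 28 list genes had negative log2 differences with and without WT 3, with medians of -0.22 and -0.15, and both Akita libraries lay below all 3 WT libraries at 21 of the 28 (75.0%, against 6.86% of all genes). The list was chosen with earlier results of these data known. None of the 28 was called, and each interval against WT 1 and WT 2 lay within 2-fold. Rplp1, a stalk protein of the large subunit, was at 1050 and 1040 CPM in Akita, against 1300, 1100 and 1600 CPM in WT (-0.36, SE 0.31). Rpl4, in the body of the large subunit, was at 2080 and 2100 CPM in Akita, against 2220, 2170 and 2700 CPM in WT (-0.18, SE 0.24). Rps2, of the small subunit, was at 808 and 890 CPM in Akita, against 957, 838 and 1490 CPM in WT, and here Akita 2 lay above WT 2.

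The size of this difference was close to the gap between WT libraries. The median ribosomal protein gene was 0.18 higher in WT 1 than in WT 2 on the log2 scale, and Akita 1 and Akita 2 lay 0.03 apart. Relative to the mean of WT 1 and WT 2, the list medians were -0.15 and -0.13 in Akita, against 0.09, -0.09 and 0.16 in WT. WT 2 was thus the WT library nearest to Akita. A wider list of all 82 cytosolic ribosomal protein genes was taken up after values had been seen. It gave 51 genes below all 3 WT libraries (62.2%, against 6.86% of all genes) and 80 with negative differences. Its summed level was 52320 and 54370 CPM in Akita, against 62880, 55520 and 67180 CPM in WT. Ribosomal protein genes have many near-identical processed pseudogenes that can take a part of their reads. The 32 named ribosomal protein pseudogenes tested summed to 27.0 and 24.5 CPM in Akita, against 37.8, 30.9 and 34.7 CPM in WT, lower in both Akita libraries as well. Copies not named after their parent gene did not enter, and how many reads were shared with the parent genes was not tested.

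**Figure D3:**
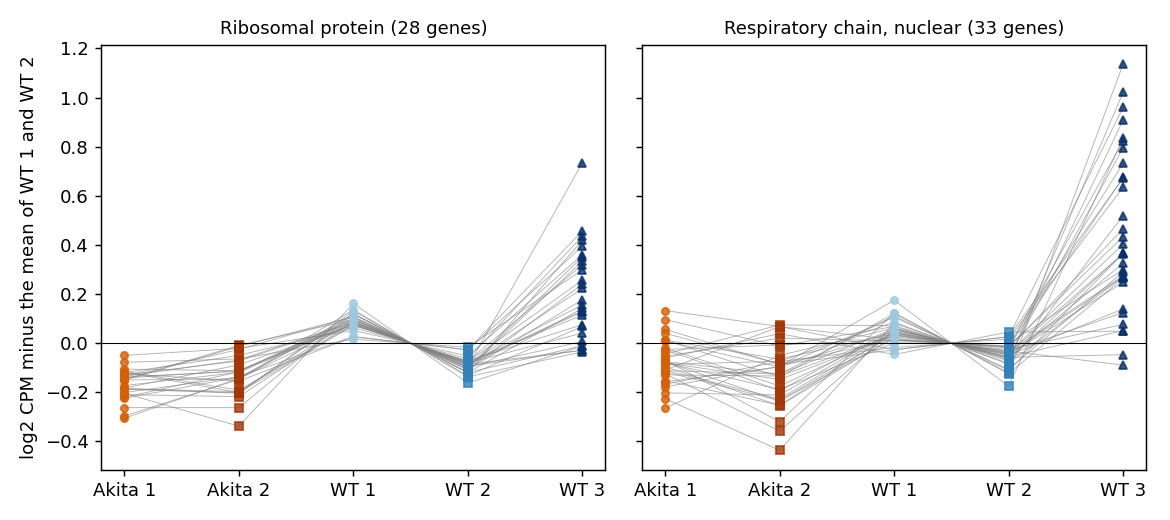
Log2 CPM minus the mean of WT 1 and WT 2 (vertical axis) for each of 28 ribosomal protein genes (left) and 33 nuclear respiratory chain genes (right), with 1 line per gene across Akita 1, Akita 2, WT 1, WT 2 and WT 3. On the left both Akita libraries centre at -0.15 and -0.13 and WT 2 at -0.09, and WT 3 is the highest library for most genes of both panels.

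Many ribosomal protein mRNAs begin with a terminal oligopyrimidine (TOP) motif, a C followed by a run of C and T at the first transcribed base, through which the nutrient- and insulin-sensitive kinase mTORC1 controls their translation. The RefSeq promoter table (GRCm38.p6) held 18 of the 28 genes. A run of at least 5 C or T that begins with C within 5 bases of the annotated start, read on the transcribed strand only, was found at 8 of the 18 (44.4%), against 1830 of the 10826 tested genes in the table (16.9%). Shares in the other lists ran from 0.0% to 40.0%, the latter for erythroid (6 of 15) and sex-linked genes (2 of 5). The starts of 4 ribosomal protein genes are given here because these had both no overlap between genotypes and a run of at least 10 bases. Each line gives 10 bases before the annotated start and 20 from it, with the run in capitals.
Rps18: cacttccgCTCTCTCTTCCacaggaggcct
Rpl13a: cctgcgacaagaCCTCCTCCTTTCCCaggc
Rpl15: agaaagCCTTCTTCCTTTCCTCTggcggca
Rpl18: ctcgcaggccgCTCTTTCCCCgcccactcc

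On GRCm38 the windows belong for Rps18 to chr17:33955646-33955675 on the minus strand, for Rpl13a to chr7:45128726-45128755 on the minus strand, for Rpl15 to chr14:18270967-18270996 on the minus strand and for Rpl18 to chr7:45718061-45718090 on the plus strand. The run describes these letters only, since counts of RNA do not measure translation. Rps18 was at 639 and 678 CPM in Akita, against 799, 697 and 952 CPM in WT (-0.31, SE 0.30). Rpl13a was at 1380 and 1530 CPM in Akita, against 1840, 1560 and 1870 CPM in WT (-0.27, SE 0.26). For Rpl15 the levels were 341 and 322 CPM in Akita, against 389, 352 and 390 CPM in WT (-0.19, SE 0.22). In each of these genes the lowest WT library was WT 2, and the nearer Akita library lay just below it.

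Nuclear genes of the respiratory chain, which make ATP from the electrons of fuel breakdown, had a similar sign and a smaller count. All 33 had negative differences against the 3 WT libraries (median -0.27) and 30 of 33 against WT 1 and WT 2 (median -0.11). Both Akita libraries lay below all 3 WT libraries at 12 of the 33 (36.4%, against 6.86%). Atp5e, a small subunit of ATP synthase, was at 97.8 and 84.5 CPM in Akita, against 121, 108 and 138 CPM in WT (-0.42, SE 0.27). Ndufs6, of complex I, was at 30.1 and 32.1 CPM in Akita, against 33.4, 34.2 and 52.5 CPM in WT. Atp5b, the catalytic subunit of ATP synthase, was at 921 and 933 CPM in Akita, against 947, 928 and 1660 CPM in WT, where the fitted -0.35 rests on WT 3 and the value without it was -0.02. The 13 genes of the mitochondrial genome had a median of -0.39 with WT 3 and -0.04 without it. For mt-Co1, a cytochrome oxidase subunit, the levels were 5500 and 6280 CPM in Akita, against 6030, 5420 and 9250 CPM in WT.

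Ribosome biogenesis and MYC target genes lay below all 3 WT libraries at 7 of 22 (31.8%, against 6.86% of all genes), with medians of -0.32 with WT 3 and -0.04 without it. Bop1, a ribosomal RNA processing factor, was at 57.3 and 61.8 CPM in Akita, against 68.8, 65.3 and 132 CPM in WT. Fbl, the methyltransferase of ribosomal RNA, was at 90.0 and 99.2 CPM in Akita, against 104, 109 and 183 CPM in WT. For Npm1 (nucleophosmin), Akita lay with WT 1 and WT 2, at 771 and 794 CPM in Akita against 799, 792 and 1480 CPM in WT.

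The sign of cell cycle genes depended on the WT libraries used. Without WT 3, 19 of 22 S phase genes (median 0.09) and 20 of 22 G2 and M phase genes (median 0.10) had positive differences. Both Akita libraries then lay above WT 1 and WT 2 at 10 and 8 of 22 genes, against 11.9% of all genes. With WT 3 the medians were -0.10 and -0.18, and no gene of either list lay above all 3 WT libraries. Mki67, a marker of dividing cells, was at 845 and 978 CPM in Akita, against 690, 785 and 1010 CPM in WT (0.31 without WT 3, 95% interval -0.21 to 0.83). Mcm6, of the replicative helicase, was at 472 and 456 CPM in Akita, against 434, 443 and 647 CPM in WT.

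Genes that respond to glucose inside the cell gave no sign of a change larger than their spread. Txnip, which the glucose-sensing factors MondoA and ChREBP induce and which limits glucose uptake, was at 649 and 515 CPM in Akita, against 551, 645 and 318 CPM in WT. Its log2 difference was 0.21 (SE 0.41) with WT 3 and -0.04 without it, with a 95% interval of -0.43 to 0.35. Akita 1 matched WT 2 and Akita 2 lay just below WT 1. Arrdc4, another MondoA target, was at 11.2 and 15.7 CPM in Akita, against 18.3, 13.2 and 9.73 CPM in WT. Over 18 MondoA and ChREBP targets the medians were 0.06 with WT 3 and -0.04 without it. None lay above or below all 3 WT libraries in both Akita libraries, while 2 lay below WT 1 and WT 2 (against 13.5% of all genes). Pklr, a ChREBP target of liver and red cells, was at 22.8 and 62.4 CPM in Akita, against 44.1, 26.3 and 289 CPM in WT, in the order of the erythroid genes.

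Glucose uptake and glycolysis gave 0 of 24 genes without overlap in either direction. Slc2a1, the basal glucose transporter, was at 92.0 and 58.1 CPM in Akita, against 63.9, 99.5 and 19.2 CPM in WT. Hk2, which traps glucose as its phosphate, was at 123 and 85.3 CPM in Akita, against 86.3, 129 and 51.4 CPM in WT. Pkm, the last enzyme of glycolysis in these cells, was at 1160 and 822 CPM in Akita, against 932, 1080 and 277 CPM in WT. In all of these Akita 1 lay with WT 2 and Akita 2 with WT 1. For 22 of the 24 genes the interval without WT 3 lay within 2-fold.

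Side branches of glucose metabolism held more genes without overlap, all of small size. Of 18 polyol, hexosamine and pentose phosphate genes, 4 lay above all 3 WT libraries (22.2%, against 4.78%) and 2 below (11.1%, against 6.86%). Akr1b10, an aldo-keto reductase, was at 17.5 and 16.6 CPM in Akita, against 14.2, 14.3 and 12.4 CPM in WT (0.32, SE 0.29, and 0.26 without WT 3, 95% interval -0.08 to 0.60). Gfpt2, which feeds the hexosamine pathway, was at 7.01 and 7.44 CPM in Akita, against 6.14, 6.62 and 0.665 CPM in WT. Rpe, a pentose phosphate epimerase, was at 63.1 and 58.2 CPM in Akita, against 53.7, 55.2 and 41.7 CPM in WT. The fourth was Ager, which encodes RAGE and was also placed on this list, at 4.05 and 4.27 CPM in Akita against 3.93, 3.93 and 3.38 CPM in WT. Pgls, the second enzyme of the pentose phosphate pathway, was at 89.4 and 90.6 CPM in Akita, against 112, 97.6 and 128 CPM in WT. Akr1b3, the mouse aldose reductase of the polyol pathway, overlapped, at 76.7 and 62.9 CPM in Akita against 71.1, 77.2 and 77.2 CPM in WT.

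**Figure D4:**
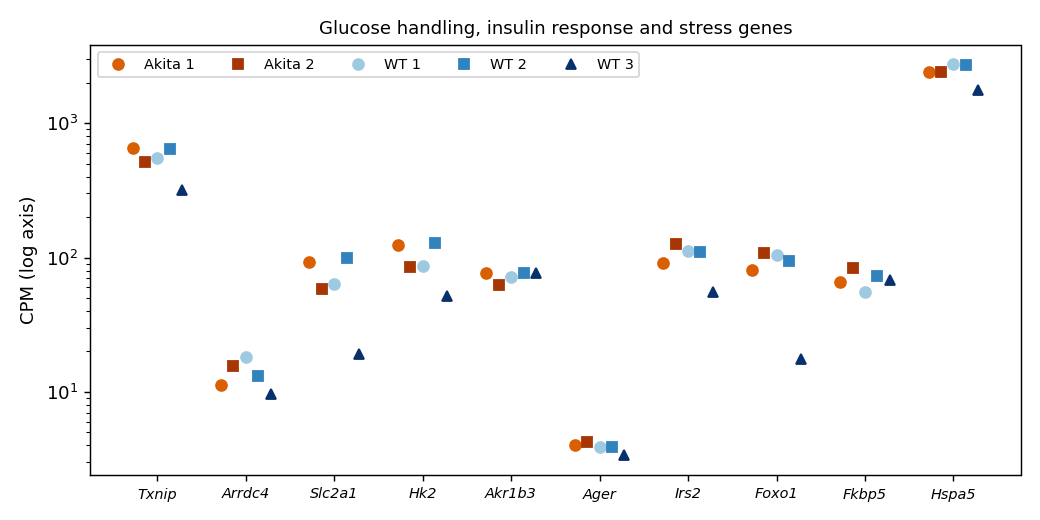
CPM on a log axis for 10 genes of glucose handling, insulin response and stress, in Akita 1 and Akita 2 (orange) and WT 1, WT 2 and WT 3 (blue). Akita and WT values overlap for 9 of the genes, Ager is the exception at 4.05 and 4.27 CPM in Akita against 3.93, 3.93 and 3.38 CPM in WT, and WT 3 is the lowest library for 8 of the 10.

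Insulin normally holds FOXO factors out of the nucleus, so FOXO targets such as the insulin receptor and Irs2 are read as a gauge of insulin action. Insr was at 47.3 and 51.4 CPM in Akita, against 44.5, 51.1 and 30.2 CPM in WT. Irs2 was at 91.8 and 127 CPM in Akita, against 112, 110 and 55.0 CPM in WT. Foxo1 was at 80.3 and 108 CPM in Akita, against 104, 94.6 and 17.7 CPM in WT. These groups overlapped, and the whole list of 24 genes had a median of 0.24 with WT 3 and 0.00 without it. Against WT 1 and WT 2, 4 genes lay below (against 13.5% of all genes) and 1 above (against 11.9%). Pik3ca, a catalytic subunit of the kinase below the insulin receptor, was the only one of the 24 above all 3 WT libraries, at 69.6 and 70.6 CPM in Akita against 61.4, 68.1 and 49.3 CPM in WT (4.17%, against 4.78% of all genes).

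Lipid and steroid response genes were close to the background or under it against all 3 WT libraries. Of 15 lipogenesis genes, 1 lay below all 3 WT libraries (6.67%, against 6.86% of all genes). It was Scd1, the stearoyl-CoA desaturase that insulin induces in mouse liver, at 19.5 and 23.5 CPM in Akita against 27.7, 30.6 and 28.6 CPM in WT (-0.43, SE 0.45). Against WT 1 and WT 2, 3 of 14 lay above (against 11.9%) and 2 below (against 13.5%). Cholesterol synthesis genes had medians of -0.02 and -0.07 over 23 genes with and without WT 3, and 1 lay below all 3 WT libraries (4.35%, against 6.86%). Without WT 3, 18 of the 23 were negative, and 5 lay below WT 1 and WT 2 (against 13.5%) and 0 above (against 11.9%). Fkbp5, a sensitive target of the glucocorticoid receptor, was at 65.5 and 83.9 CPM in Akita, against 55.3, 72.9 and 67.9 CPM in WT (0.22 without WT 3, 95% interval -0.18 to 0.62). The 18 glucocorticoid response genes had medians of 0.23 with WT 3 and -0.08 without it. Against all 3 WT libraries 1 of them lay below (5.56%, against 6.86%) and none above.

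Among blood lineages, stem and multipotent progenitor genes showed no shared direction. Of 20 genes, 8 had positive and 12 negative differences, and the medians were -0.04 with WT 3 and 0.05 without it. Akita lay above all 3 WT libraries at 2 genes (against 4.78% of all genes) and below at 2 (against 6.86%). The counts against WT 1 and WT 2 were 4 above (against 11.9%) and 3 below (against 13.5%). Fgd5, a stem cell marker in mouse, was at 0.665 and 1.30 CPM in Akita, against 0.503, 0.348 and 0.00 CPM in WT (1.21 without WT 3, 95% interval -0.02 to 2.45). Slamf1, encoding the stem cell marker CD150, was at 2.24 and 2.54 CPM in Akita, against 4.68, 2.84 and 4.71 CPM in WT (-0.65 without WT 3, 95% interval -1.34 to 0.05). These low levels rest on few reads, and the 2 markers lay in opposite directions. In bulk RNA, fewer cells of a type and less RNA per cell cannot be told apart, here and for all lineages below.

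Erythroid genes split the libraries across genotypes. Car1, a carbonic anhydrase of early erythroid cells, was at 111 and 533 CPM in Akita, against 379, 123 and 1440 CPM in WT. Gata1, the erythroid and megakaryocyte transcription factor, was at 23.4 and 57.0 CPM in Akita, against 52.0, 23.3 and 165 CPM in WT. Akita 1 and WT 2 were low and Akita 2, WT 1 and WT 3 high. For the median erythroid gene, Akita 1 minus Akita 2 was -1.5 on the log2 scale and WT 1 minus WT 2 was 1.16. Over 20 genes 0 lay outside the other genotype in both libraries, and the list median was -0.35 with WT 3 and 0.12 without it. Globin genes have near-identical copies, so their split between copies is uncertain.

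Among cell type lists, megakaryocyte and platelet genes had the highest share below all 3 WT libraries. Of 20 genes, 7 lay below all 3 WT libraries (35.0%, against 6.86%) and 0 above, with 17 negative differences and a median of -0.46. Without WT 3 the median was -0.17 over 18 genes, 15 of them negative. Pf4 (platelet factor 4, chr5:90772435-90773383, plus strand of GRCm38) was at 14.0 and 9.07 CPM in Akita, against 17.5, 18.5 and 20.1 CPM in WT (-0.70, SE 0.60, and -0.65 without WT 3, 95% interval -1.47 to 0.18). Itga2b, the platelet integrin CD41, was at 127 and 131 CPM in Akita, against 141, 136 and 221 CPM in WT. Thbs1 (thrombospondin 1), which other marrow cells also make, was at 412 and 422 CPM in Akita, against 425, 583 and 32.1 CPM in WT. Vwf overlapped, at 24.0 and 24.1 CPM in Akita, against 22.6, 28.9 and 41.5 CPM in WT. The summed level of the list was 822 and 811 CPM in Akita, against 878, 1019 and 498 CPM in WT, a total led by Thbs1.

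Neutrophil genes did not separate the genotypes. Mpo, of the primary granules, was at 7350 and 5670 CPM in Akita, against 5530, 7340 and 1150 CPM in WT. Elane, neutrophil elastase, was at 1810 and 1540 CPM in Akita, against 1710, 1900 and 98.5 CPM in WT. Over 14 primary granule genes the median was 0.45 with WT 3 and -0.03 without it, and 0 lay outside the other genotype. Maturing neutrophil genes gave 0.49 with WT 3 and 0.05 without it over 26 genes, and the 2 Akita libraries lay 0.87 apart. Mmp9, a secreted protease of late neutrophils, was at 323 and 113 CPM in Akita, against 170, 217 and 72.7 CPM in WT, so the WT values lay between the 2 Akita values or below them. The positive fitted values of both lists thus rest on WT 3.

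Monocyte and macrophage genes had a median of -0.04 with WT 3 and -0.18 without it, where 18 of 20 were negative. Ly6c2, of inflammatory monocytes, was at 450 and 293 CPM in Akita, against 404, 472 and 56.3 CPM in WT. Irf8, which directs monocyte and dendritic fates, was at 171 and 142 CPM in Akita, against 180, 175 and 361 CPM in WT (-0.61, SE 0.35, and -0.18 without WT 3, 95% interval -0.53 to 0.17). Irf8 was the only one of the 20 list genes below all 3 WT libraries in both Akita libraries (5%, against 6.86% of all genes).

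Dendritic cell and antigen presentation genes were lower in Akita than in WT 1 and WT 2. Of 19 genes, 9 lay below both WT libraries (against 13.5% of all genes) and 0 above, with 17 negative differences and a median of -0.18. Against all 3 WT libraries 5 of 19 lay below (26.3%, against 6.86%) and the median was -0.09. Itgax (chr7:128129547-128150657, plus strand), which encodes the dendritic integrin CD11c, was at 28.4 and 24.1 CPM in Akita, against 31.9, 39.2 and 52.8 CPM in WT (-0.65, SE 0.39). Its difference without WT 3 was -0.44, with a 95% interval of -0.83 to -0.04. H2-Aa (chr17:34282744-34287823, minus strand, both on GRCm38), a chain of the MHC class II molecule, was at 153 and 149 CPM in Akita, against 213, 191 and 78.0 CPM in WT. H2-Eb1, another class II chain, was at 82.8 and 86.0 CPM in Akita, against 113, 111 and 44.2 CPM in WT. Without WT 3 the intervals were -0.69 to -0.15 for H2-Aa and -0.79 to -0.03 for H2-Eb1, and neither was called after adjustment by edgeR (adjusted p = 1 for both). Cd74, the invariant chain, was at 421 and 413 CPM in Akita, against 513, 503 and 269 CPM in WT. In the class II genes WT 3 lay below both Akita libraries, so the direction holds against WT 1 and WT 2 only. Siglech, of plasmacytoid dendritic cells, was at 49.3 and 57.0 CPM in Akita, against 74.8, 58.7 and 57.5 CPM in WT, below all 3. B cells also express class II genes, and the 19 B lineage genes summed to 1612 and 801 CPM in Akita, against 1093, 1624 and 5155 CPM in WT, a sum carried by Ighm. The other 18 summed to 285 and 336 CPM in Akita, against 365, 299 and 301 CPM in WT. Their part in the class II values was not tested.

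Basophil, mast cell and eosinophil genes lay below all 3 WT libraries at 4 of 19 (21.1%, against 6.86% of all genes). They lay above at 1, which was Kit (5.26%, against 4.78%). The medians were -0.28 and -0.15 with and without WT 3. Il4, a cytokine of basophils, was at 0.967 and 1.39 CPM in Akita, against 1.71, 1.89 and 7.07 CPM in WT. The most abundant of these genes overlapped: Prss34, a basophil protease, was at 994 and 1200 CPM in Akita, against 1470, 974 and 1600 CPM in WT.

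T, NK and B lineage genes mostly had negative differences against WT 1 and WT 2, but the list medians of Akita 2 did not lie below both. Relative to the mean of WT 1 and WT 2, Akita 2 was at -0.11 for T and NK cell genes, above WT 2 at -0.20. For B lineage genes Akita 2 was at 0.02, above WT 2 at -0.07. For T and NK cell genes 20 of 22 differences were negative without WT 3 (median -0.22). Both Akita libraries lay below WT 1 and WT 2 at 7 of 22 genes (against 13.5% of all genes) and above at 0. Among the 7 was Cd4, at 3.93 and 4.32 CPM in Akita, against 7.35, 4.78 and 6.47 CPM in WT. With WT 3 the median was 0.03 and 1 of 22 lay below all 3 WT libraries (4.55%, against 6.86%). WT 1 was 0.40 above WT 2 over this list on the log2 scale, a gap wider than the difference between genotypes. Of 19 B lineage genes, 17 were negative without WT 3, and 3 lay below WT 1 and WT 2 (against 13.5%) and 0 above (against 11.9%). Their medians were -0.10 with WT 3 and -0.12 without it, and 1 lay below all 3 WT libraries (5.26%, against 6.86%). It was Vpreb3, at 3.20 and 4.27 CPM in Akita against 6.04, 5.02 and 6.77 CPM in WT. Plasma cell genes overlapped in all 15 with WT 3, and without it Xbp1 alone lay below both WT libraries. Igha, the IgA heavy chain, was at 7090 and 3230 CPM in Akita, against 5900, 3820 and 1170 CPM in WT. Stromal, endothelial and fat genes had a median of -0.61 over 17 genes with WT 3 and -0.08 over 12 without it, so most of the value with WT 3 was set by that library.

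**Figure D5:**
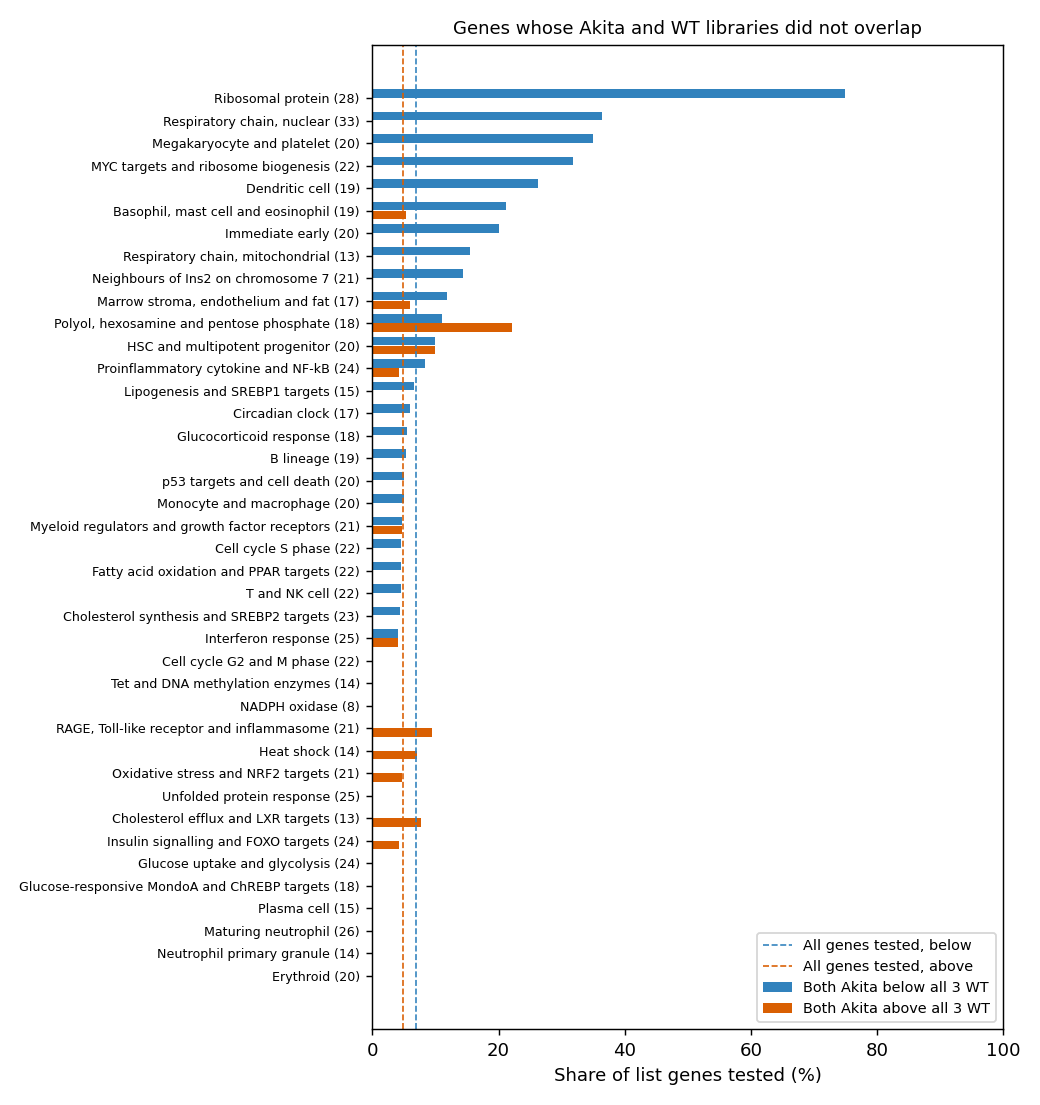
Share of each list's tested genes (horizontal axis, in percent, with the number of genes in brackets) whose 2 Akita libraries both lay below (blue) or above (orange) all 3 WT libraries, with dashed lines at the shares over all genes of 6.86% and 4.78%. Ribosomal protein genes reach 75.0% below, nuclear respiratory chain genes 36.4% and megakaryocyte and platelet genes 35.0%, while glucose uptake, glycolysis, erythroid and neutrophil lists are at 0.

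Alarmins and inflammatory genes, which diabetes is known to raise in circulating myeloid cells, overlapped between genotypes. S100a8 was at 4230 and 2210 CPM in Akita, against 3390, 3410 and 284 CPM in WT. S100a9 was at 8160 and 4190 CPM in Akita, against 6190, 6150 and 545 CPM in WT. In both, Akita 1 was the highest of the 5 libraries and Akita 2 lay below WT 1 and WT 2, and the 95% intervals without WT 3 ran from -0.85 to 0.70 and from -0.81 to 0.81. A change of up to about these sizes was not detectable with these libraries. Il1b, the main inflammasome cytokine, was at 34.9 and 24.1 CPM in Akita, against 35.5, 34.6 and 16.0 CPM in WT. Tnf was at 52.3 and 38.1 CPM in Akita, against 50.4, 48.7 and 44.8 CPM in WT. Il6 was at 61.4 and 61.9 CPM in Akita, against 58.8, 46.9 and 91.4 CPM in WT. None of these 3 cytokines separated the genotypes with WT 3, and without it Il6 lay above both WT libraries (0.22, 95% interval -0.67 to 1.12).

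Receptors and signalling genes of the same pathways had few genes outside the range of all 3 WT libraries. Of 21 RAGE, Toll-like receptor and inflammasome genes, 2 lay above all 3 WT libraries (9.52%, against 4.78%), Ager and Nlrc4, and the medians were 0.25 with WT 3 and 0.00 without it. Tlr4, the receptor of lipopolysaccharide, was at 19.5 and 20.3 CPM in Akita, against 17.5, 19.6 and 3.20 CPM in WT. Cytokine and NF-kB genes had medians of 0.09 with WT 3 and -0.11 without it over 24 genes, where 20 of 24 were negative. Nfkbiz and Ccl4 lay below all 3 WT libraries (8.33%, against 6.86%) and Il1a above (4.17%, against 4.78%). Against WT 1 and WT 2, 9 of 24 lay below (against 13.5% of all genes) and 2 above (against 11.9%). Il1a, another inflammatory cytokine, was at 1.81 and 1.87 CPM in Akita against 1.51, 1.04 and 0.483 CPM in WT. Ccl4, a chemokine, was at 51.7 and 50.5 CPM in Akita, against 55.5, 55.0 and 185 CPM in WT. Interferon response genes were at 0.11 with WT 3 and -0.01 without it over 25 genes. Against all 3 WT libraries 1 gene lay above (4.0%, against 4.78%) and 1 below (4.0%, against 6.86%). The lower was Bst2, which encodes tetherin, at 79.7 and 67.5 CPM in Akita against 91.4, 86.1 and 85.7 CPM in WT. The higher was Ifih1, a sensor of viral RNA, at 56.1 and 55.8 CPM in Akita against 43.6, 54.6 and 18.5 CPM in WT.

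Unfolded protein response genes bear on a model whose primary lesion is a misfolded protein in another organ. In marrow, 0 of 25 genes lay above or below all 3 WT libraries, and the medians were 0.19 with WT 3 and -0.01 without it. Against WT 1 and WT 2, 8 of 25 lay below both (against 13.5% of all genes), among them Hspa5, Ddit3, Atf4 and Xbp1, and 1 lay above (Canx). Hspa5, the chaperone BiP, was at 2410 and 2410 CPM in Akita, against 2740, 2720 and 1760 CPM in WT. Its difference without WT 3 was -0.18, with a 95% interval of -0.54 to 0.19, which leaves out an increase of 2-fold. Ddit3 (CHOP) was at 173 and 158 CPM in Akita, against 184, 185 and 42.5 CPM in WT. Oxidative stress and NRF2 target genes had medians of -0.12 and -0.09 with and without WT 3, and Hmox1, which degrades heme, was at 22.9 and 21.9 CPM in Akita, against 26.9, 22.3 and 147 CPM in WT.

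Immediate early genes, which respond within minutes to stimulation and to cell handling, were lower in Akita than in WT 1 and WT 2 at 9 of 20 genes (against 13.5%) and lower than all 3 at 4 of 20 (20%, against 6.86%), with medians of -0.17 with WT 3 and -0.16 without it. Egr2 was at 4.83 and 5.85 CPM in Akita, against 5.89, 6.62 and 12.6 CPM in WT. Jun was at 715 and 712 CPM in Akita, against 708, 826 and 1390 CPM in WT. WT 2 lay 0.17 above WT 1 over this list, which is as large as the difference between genotypes.

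Tet2, the DNA demethylation enzyme whose partial loss the series studies, was at 131 and 107 CPM in Akita, against 91.1, 128 and 45.1 CPM in WT. Its difference was 0.43 (SE 0.48) with WT 3 and 0.12 without it (95% interval -0.44 to 0.68), so no effect of the Akita allele on Tet2 RNA was detectable here. Tet3 was at 127 and 138 CPM in Akita, against 106, 130 and 89.9 CPM in WT. Dnmt1, the maintenance methyltransferase, was at 334 and 315 CPM in Akita, against 250, 292 and 321 CPM in WT, above WT 1 and WT 2 and not above WT 3. Of 14 Tet and DNA methylation genes, 12 had positive differences without WT 3 (median 0.11). Against WT 1 and WT 2, 5 lay above (against 11.9% of all genes) and 1 below (against 13.5%). Against all 3 WT libraries 0 lay above (against 4.78%) and 0 below (against 6.86%).

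Genes beside Ins2 on chromosome 7 were read because a mutation kept in a strain by breeding carries its neighbours with it. Of 21 tested, 3 lay below all 3 WT libraries (14.3%, against 6.86%) and none above, with medians of -0.09 with WT 3 and 0.01 without it. Tnni2, a troponin gene, was at 1.87 and 1.82 CPM in Akita, against 2.77, 3.13 and 3.26 CPM in WT. Ctsd, cathepsin D, was at 601 and 530 CPM in Akita, against 567, 558 and 620 CPM in WT. Genes of the Y chromosome were expressed in all 5 libraries, and 3 of 4 tested (75.0%, against 4.78%) lay above all 3 WT libraries, Ddx3y, Eif2s3y and Kdm5d. The differences were small, with a median of 0.15 with WT 3 and 0.11 without it, and none was called. Eif2s3y, a translation factor gene, was at 77.8 and 76.3 CPM in Akita, against 70.2, 72.4 and 68.1 CPM in WT.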

How the data were processed

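RNA of Lin-negative marrow was read as whole-number counts per gene, deposited by the authors as one table of raw counts, per the file headers and values. The tools named for the upstream steps, per the submitters' processing notes, are TopHat2 2.1.1, Trimmomatic 0.32 and bcl2fastq, and the build is GRCm38. No source used here names the counting program, annotation or strand setting (not given in the sources used here), so overlapping, antisense, pseudogene and multi-copy genes are uncertain. Of 31060 gene identifiers, 30875 matched GENCODE M21 without their version. In the table, 1 column matched no sample label and was not used.

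Counts were fitted with edgeR 4.0.16 in R 4.3.3 (filterByExpr, TMM, glmQLFit with robust=TRUE, glmQLFTest, Benjamini-Hochberg adjusted p under 0.05). The comparison with 3 WT libraries used a fit of all 11 libraries. That with WT 1 and WT 2 used a fit without any library numbered 3. The standard error is the log2 difference divided by the square root of F. The script was tested on simulated counts. DESeq2 1.42.0, limma 3.58.1 (voom, with and without sample quality weights), other scalings and filters, a replicate block and leaving out each library were tried. Akita and WT libraries differed from their replicates beyond counting noise (chi-square per gene 35.3 for Akita, at least 16.3 for WT).

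Members and gene lists were chosen with earlier results of these data known. Named genes are 9 fixed genes and up to 4 of each list, by smallest p and highest CPM. Up to 12 more in each direction were taken by smallest p. They had a log2 difference of at least 1 in size, a mean of at least 1 CPM and no overlap. Symbols made of Gm or Rik with digits and unnamed identifiers were left out of these. Cd3e, Arrdc4, Slc2a1, Hk2, Akr1b3, Gfpt2, Rpe, Ager, Nlrc4, Insr, Irs2, Foxo1, Pf4, Vwf, H2-Eb1, Siglech, Tlr4, Ddit3, Abca1, Il1a, Nfkbiz, Bst2, Canx, Atf4, Xbp1 and 4 ribosomal protein genes shown with their starts were added after their values were seen.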

Additional observations from a re-analysis of the deposited data

How the results depend on the processing

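No gene was called against all 3 WT libraries under any of 21 alternatives, nor against WT 1 and WT 2 under any planned one. The replicate block called 0 genes in both comparisons. Deviations from the group means correlated at -0.26 for Akita and WT libraries of the same number without WT 3, and at 0.07 and -0.31 with it. As the deviations of the 2 Akita libraries mirror each other, these values cannot show whether samples were paired. With the crossed pairing of the 4 libraries, added after seeing the data, 5 genes were called (all lower in Akita), against 0 with the labelled pairing. The crossed pairing joins each Akita library to the WT library it resembled most in these same data. Its choice thus lowers the residual spread, and these 5 calls are not read as changes. Sample quality weights gave 482 and 245 genes at an unadjusted p under 0.05.

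Counts of genes without overlap were 747 higher and 1072 lower. They were 1413 and 1650 with no low count filter and 405 and 661 at a mean of at least 5 CPM, where the number of genes entered sets the change. Leaving out each library gave 1443 to 3122 higher and 1786 to 3428 lower, since fewer libraries overlap less often. List medians were read in 17 settings. These were the main fit against WT 1 and WT 2 and the fits against all 3 WT libraries, apart from those leaving out a Tet2+/- library. The sign held in all 17 for 9 of 41 lists. Among them were ribosomal protein (-0.29 to -0.12), nuclear respiratory chain (-0.36 to -0.10), megakaryocyte and platelet (-0.57 to -0.15) and dendritic (-0.33 to -0.03). The others were basophil and mast cell, NRF2, immediate early, MYC and sex-linked. Erythroid ran from -1.20 to 0.35 and maturing neutrophil from -0.06 to 1.02. As no gene was called, no call could reverse. With 2 Akita libraries, an interval within 1.5-fold was reached for 46.2% of genes in the fit without libraries numbered 3. In the fit of all libraries it was reached for 8.33%. Leaving out 1 Akita library leaves a lone sample assumed to vary like the other groups.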

Other observations

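Slc15a2, a peptide transporter (chromosome 16, 36750177 to 36784962, minus strand, GRCm38), was singled out after its values were seen, because it was the only gene outside the immunoglobulin loci among the 11 genes above 10 CPM with a fitted difference over 2-fold without WT 3. It was at 5.44 and 0.24 CPM in Akita, against 15.7, 24.6 and 30.2 CPM in WT. The log2 difference was -3.06 (SE 1.70) with WT 3 and -2.87 (SE 1.16) without it, and edgeR's adjusted p was 1 in both. The Tet2+/- libraries were low as well, at 0.474, 0.0593 and 9.90 CPM, and so were those with both mutations, at 1.70, 8.65 and 8.56 CPM. All 8 libraries of the mutant genotypes thus lay below all 3 WT libraries, with a wide spread between replicates of the same genotype.

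Gm42418, a locus on chromosome 17 known to collect reads of ribosomal RNA, was the gene with the highest mean level of the 5 libraries. It was at 18300 and 7540 CPM in Akita, against 7650, 7680 and 9110 CPM in WT, so Akita 1 stood above the other 4. It too was singled out after its values were seen.

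Heat shock genes differed between WT libraries. Hspa8, a constitutive chaperone, was at 3280 and 3060 CPM in Akita, against 2550, 3460 and 2470 CPM in WT, and the median heat shock gene was 0.50 lower in WT 1 than in WT 2 on the log2 scale. Per1, a clock gene, was at 358 and 374 CPM in Akita, against 377, 407 and 173 CPM in WT. Of 17 clock genes, 1 lay below all 3 WT libraries (5.88%, against 6.86% of all genes) and none above, while 5 lay below WT 1 and WT 2 (against 13.5%), Per1 among them. Genes of cholesterol efflux had medians of 0.04 with WT 3 and -0.03 without it, fatty acid oxidation -0.01 and 0.02, p53 targets 0.05 and 0.00, NADPH oxidase subunits 0.28 and 0.00, and myeloid regulators 0.19 and -0.05. Abca1, a cholesterol exporter, lay above and Bax, a cell death gene, below all 3 WT libraries in both Akita libraries.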
